A study of Mus musculus with 4 samples.

Results

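The 10 genes described here are interferon-induced genes of the IFIT, IFITM and IFI27 families (Ifit1, Ifit2, Ifit3, Ifitm1, Ifitm2, Ifitm3, Ifi27 and Ifi27l2a), together with Ifi35 and Ifi44. They were chosen by gene name out of the 22369 genes of the deposited table, and all 10 were found there. The choice was made with the difference between V118M and wild-type SOX17 in these same libraries already known, so that difference is given as a description and supports no test of the set. All 10 passed the filter on low values, which required 2 or more libraries to reach a value of 1 and left 19547 genes for testing.

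Both groups were OG2MEF cultures, mouse embryonic fibroblasts with a green fluorescent reporter under Oct4 control, sampled on day 9 of reprogramming. One group was labelled wild-type SOX17 (2 libraries) and the other SOX17-V118M (2 libraries), a missense form of this endodermal transcription factor. The protocol names retroviruses carrying Sox2 and Klf4 with OCT4, SOX17, SOX17-V118M or GFP, followed by mouse embryonic stem cell medium containing LIF and vitamin C, without stating the mix behind each library. Cultures that received OCT4 or GFP, and untransduced fibroblasts, were not analysed here, so the values compare both SOX17 forms with each other and not with a resting state. Whether the replicates are independent cultures is not given, and p-values then measure only the spread between these libraries, which may be technical. V118M replicate 2 stood apart: over the 12661 genes whose log2 values averaged 5 or more, it correlated with the others at 0.954 to 0.964, against 0.986 to 0.990 among the other 3 libraries. The differences of the 10 genes and the counts over neighbours and over all pathway genes together are given with and without it. For most single lists of pathway genes, only the median is given without it.

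Interferons are secreted proteins that bind cell surface receptors, activate JAK kinases and STAT factors, and switch on a common set of antiviral genes, many through a promoter element named the interferon-stimulated response element. IFIT proteins are cytoplasmic and bind foreign RNA or block its translation. IFITM proteins sit in membranes and hinder the fusion of enveloped viruses, and Ifitm3, also called fragilis, is in addition a familiar marker of early germ cells in the mouse. IFI27 proteins are small and hydrophobic and are found in mitochondrial or nuclear membranes. Several of these genes have a basal level in fibroblasts without added interferon.

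The 10 genes were all higher in V118M on average. Their log2 fold changes, taken on the log2(value + 1) scale as V118M minus wild type, ran from 0.11 for Ifitm2 to 4.23 for Ifi27l2a with a median of 0.98, where the median of all tested genes was 0.00. Among all tested genes 50% had a positive log2 fold change. Both V118M libraries lay above both wild-type libraries in 9 of the 10, the exception being Ifit2, and this was so in 13.2% of all tested genes. A difference of at least 2-fold (a log2 fold change of 1) was seen in 5 of the 10 and in 3.77% of tested genes. None of the 10 passed an adjusted p of 0.05 in the limma fit over all genes, in which 0 genes (0%) passed. Before adjustment, 784 genes had a p under 0.05, of which 451 (2.31% of those tested) were higher and 333 lower, and 8 of the 10 were among the higher ones. Leaving out wild-type replicate 1 or 2 made that count 3 or 4, and leaving out V118M replicate 1 or 2 made it 7 or 5, where, in that order, 0.938%, 1.12%, 14% and 4.63% of tested genes were past the same mark and higher. Because the genes were chosen with this contrast known, nothing further is read from these shares. RNA came from whole cultures, so more cells with an interferon response and more RNA per cell cannot be told apart.

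**Figure D1:**
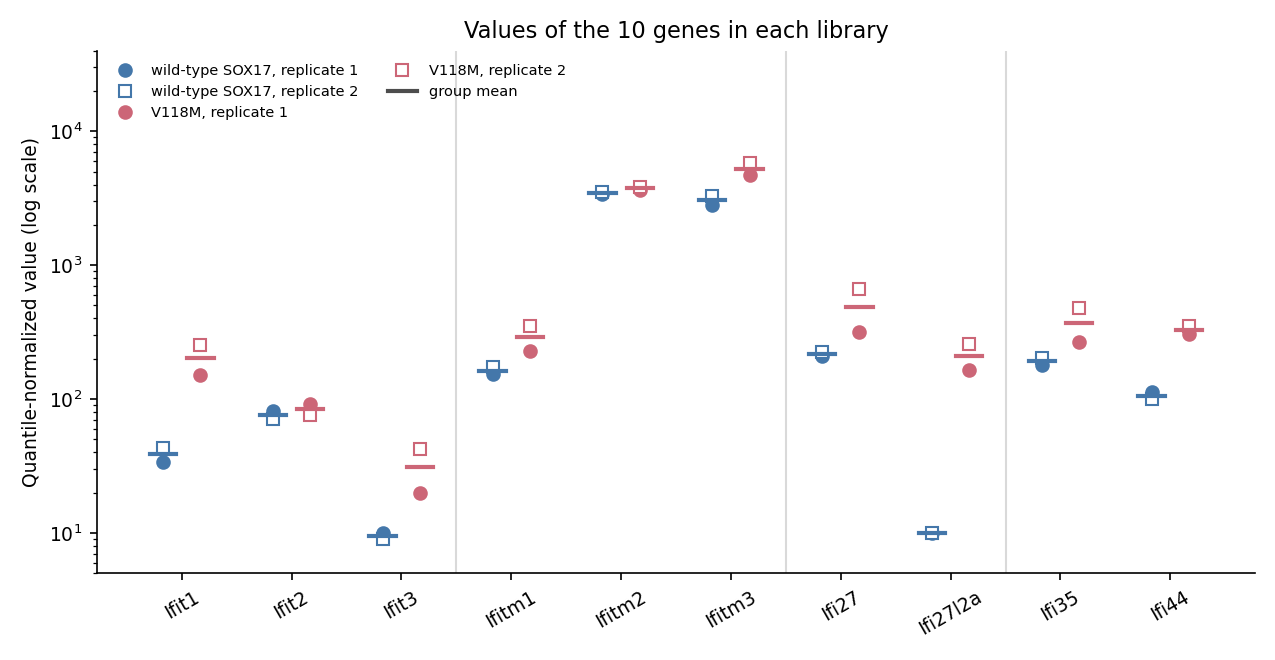
Quantile-normalized value (log axis) of each of the 10 genes in the 2 wild-type SOX17 and 2 V118M libraries, with a bar at each group mean. Ifi27l2a rested at 10 in wild type and reached 164 and 256 in V118M, while the points of Ifit2 overlapped between groups.

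The IFIT genes lie together on chromosome 19 (GRCm38), and Ifit1 and Ifit3 were higher in V118M while Ifit2 overlapped between the groups. Ifit1 (ENSMUSG00000034459, 34640871 to 34650009, plus strand), which binds viral RNA that lacks a methylated cap, had values of 34 and 43 in wild type, and of 150 and 252 in V118M. The lowest V118M value was 107 above the highest wild-type value. The fitted log2 difference was 2.32 ± 0.33 (standard error, as after ± from here on), with a limma adjusted p of 0.515. Ifit3 (ENSMUSG00000074896, 34583531 to 34588731), which partners Ifit1 in human cells, was at 10 and 9 in wild type and at 20 and 42 in V118M. The groups did not overlap, but V118M replicate 2 was well above replicate 1, and the log2 difference was 1.52 ± 0.49. It was 1.00 without V118M replicate 2 and 2.04 without replicate 1, and for Ifit1 1.94 and 2.69. Its adjusted p over all genes was 0.951 (limma), a value shared by 7 of the 10 genes: Ifit2, Ifit3, Ifi27, Ifi35 and all 3 IFITM genes.

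Ifit3 has a close copy, Ifit3b, in the same locus, and reads could be split between them. Ifit3b was at 3 and 6 in wild type and at 12 and 14 in V118M. The summed values of both copies were 13 and 15 in the wild-type pair and 32 and 56 in the V118M pair, a log2 fold change of 1.53, so the direction did not depend on how reads were divided. Ifit1 also has 2 related genes there, Ifit1bl1 (8 and 2 against 6 and 0) and Ifit1bl2 (3 and 4 against 2 and 0), both near the bottom of the scale.

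Ifit2 (ENSMUSG00000045932, 34550694 to 34576419), an RNA-binding family member also linked to apoptosis, stood apart from Ifit1 and Ifit3. It was at 81 and 71 in wild type and at 92 and 76 in V118M. Wild-type replicate 1 was above V118M replicate 2, so the groups overlapped, and the log2 difference of 0.14 was smaller than its standard error of 0.24. Without V118M replicate 2 it was 0.28, and without replicate 1 0.003. The ratio of Ifit1 to Ifit2 within a library, which no single scale factor per library can alter, although quantile normalization can, was 0.42 and 0.606 in the wild-type pair and 1.63 and 3.32 in the V118M pair. Ifit2 was thus the higher of the pair by value in both wild-type libraries and the lower in both V118M libraries. Per kilobase of transcript the same ratio was 0.603 and 0.871 in the wild-type pair and 2.34 and 4.77 in the V118M pair, which keeps that order.

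The promoters of Ifit1, Ifit3 and Ifit2 are shown because these neighbours differ both in their values and in the letters searched for. Promoter windows of 300 bases (250 before and 50 after a RefSeq start, GRCm38.p6) were at hand for 8 of the 10 genes and not for Ifi27 and Ifi27l2a. They were searched on both strands for the core of the interferon-stimulated response element, GAAANNGAAA, which reads TTTCNNTTTC on the other strand. Of 32851 windows of this length in the same table, 3.44% held at least 1 match and 0.225% held 2 or more. Ifit1 held 2, whose first bases lay 104 and 85 bases before the start, and Ifit3 held 2, at 156 and 122 bases before it. Neither of the 2 Ifit2 windows held the letters. The stretches below are written 5′ to 3′ on the plus strand with the matches in capitals. A match is a description of letters and not evidence of binding, and the absence of these letters says nothing about regulation from elsewhere.

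Ifit1, chr19:34640759-34640828: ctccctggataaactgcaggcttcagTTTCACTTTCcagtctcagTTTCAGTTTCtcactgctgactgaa
Ifit3, chr19:34583349-34583438: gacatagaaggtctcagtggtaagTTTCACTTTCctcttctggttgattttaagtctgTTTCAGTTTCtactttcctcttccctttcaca
Ifit2, chr19:34550564-34550633: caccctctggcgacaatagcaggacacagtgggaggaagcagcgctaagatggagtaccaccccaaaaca

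In these stretches Ifit1 and Ifit3 each hold both spellings, TTTCACTTTC and then TTTCAGTTTC, in the same order and orientation. Ifit1 and Ifit3 were also the pair of this family whose groups did not overlap, but these promoters were chosen with that known. Outside this family Ifi44 held no core match at a log2 fold change of 1.63, and Ifitm2 held a match at 0.11. A relation between the letters and the values was not tested. The Ifit2 windows were set at 2 RefSeq starts, 16 and 378 bases from the start site that the table gives for this gene.

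**Figure D2:**
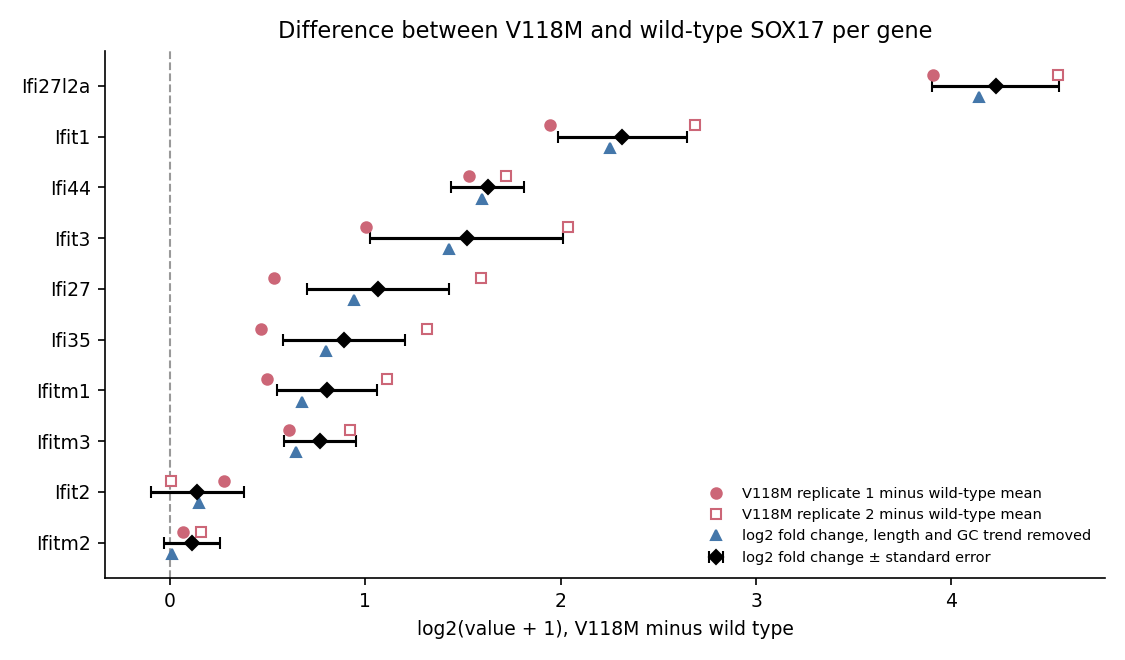
Difference between V118M and wild-type SOX17 on the log2(value + 1) scale for each gene, with the fitted value and its standard error (diamonds), each V118M library against the wild-type mean (circles and squares) and the fit with a length and GC trend removed (triangles). Ifi27l2a stands at 4.23, and Ifit2 and Ifitm2 lie at 0.14 and 0.11.

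Ifitm2 and Ifitm3 were the most abundant of the 10, and in this family Ifitm3 and Ifitm1 were higher in V118M by more than Ifitm2. Ifitm3 (ENSMUSG00000025492, chromosome 7, 141009586 to 141010770, minus strand), the member that restricts viruses entering through endosomes, was at 2836 and 3306 in wild type and at 4678 and 5802 in V118M. Both V118M values were above both wild-type values by at least 1372. The log2 difference was 0.77 ± 0.18, with 0.61 and 0.92 when V118M replicate 2 or 1 was left out. Ifitm1 (ENSMUSG00000025491, 140967221 to 140969825, plus strand), found mainly at the cell surface, was at 153 and 172 in wild type and at 229 and 352 in V118M. Again the groups did not overlap, and the log2 difference was 0.80 ± 0.26. Leaving out V118M replicate 2 brought it to 0.49, and leaving out replicate 1 to 1.11.

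Ifitm2 (ENSMUSG00000060591, 140954837 to 140955987, minus strand) was at 3402 and 3515 in wild type and at 3618 and 3864 in V118M. The groups did not overlap, yet the log2 fold change of 0.11 was within its standard error of 0.14, and was 0.07 or 0.16 when V118M replicate 2 or 1 was left out. With a smooth trend on transcript length and GC content removed from each library, its log2 fold change was 0.01. The ratio of Ifitm3 to Ifitm2 in a library was 0.834 and 0.941 in the wild-type pair and 1.29 and 1.5 in the V118M pair. Their transcripts are of nearly equal length (678 and 655 bases), and per kilobase the ratio was 0.805 and 0.909 against 1.25 and 1.45. Ifitm2 was therefore the higher of the pair in both wild-type libraries and Ifitm3 in both V118M libraries. Ifitm1 kept close to the same proportion of Ifitm3 throughout, at 0.0539 and 0.052 of its value in the wild-type pair and 0.049 and 0.0607 in the V118M pair.

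The promoters of this pair are set side by side because a shared motif match accompanied unequal differences. Ifitm2 held 1 match to GAAANNGAAA, 46 bases before its RefSeq start, and Ifitm3 held 2, beginning 2 and 19 bases after its start. The Ifitm2 match and the first Ifitm3 match have the same letters, GAAAAGGAAA, and the second Ifitm3 match, GAAACCGAAA, has no counterpart in the Ifitm2 window. The Ifitm1 window held none, but its RefSeq start is 855 bases from the start site given in the table. Both stretches are on the minus strand, with matches in capitals.

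Ifitm2, chr7:140955962-140956031: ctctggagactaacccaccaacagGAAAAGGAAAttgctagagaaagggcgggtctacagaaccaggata
Ifitm3, chr7:141010715-141010744: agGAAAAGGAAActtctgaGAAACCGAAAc

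Of the 8 genes with a window, 4 held the core (Ifit1, Ifit3, Ifitm2 and Ifitm3) and 4 did not (Ifit2, Ifitm1, Ifi35 and Ifi44). The gamma-activated site, TTCNNNGAA, the same on either strand and present in 8.30% of all windows, was found once each for Ifit2, Ifitm3 and Ifi35. In Ifitm3 it overlapped the second core match. The log2 fold changes of the genes with the core were 2.32, 1.52, 0.11 and 0.77, and of those without it 0.14, 0.80, 0.89 and 1.63, so both sets held a gene near 0 and a gene above 1.5.

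Ifi27 and Ifi27l2a lie next to each other on chromosome 12 on opposite strands, and Ifi27l2a had the widest difference of the 10. Ifi27l2a (ENSMUSG00000079017, 103442167 to 103443680, minus strand), a small membrane protein gene also known as Isg12, had the value 10 in each wild-type library and 164 and 256 in V118M. The V118M mean was 21 times the wild-type mean, with no overlap. The log2 difference was 4.23 ± 0.33, and its limma adjusted p of 0.205 was the lowest of any tested gene, a value it shared with other genes, Irf7 among them. Against the wild-type mean it was 3.91 higher in V118M replicate 1 and 4.55 higher in replicate 2. Ifi27 (ENSMUSG00000064215, 103434211 to 103440239, plus strand) was at 211 and 224 in wild type and at 315 and 658 in V118M. No V118M library overlapped the wild type, but replicate 2 was far above replicate 1, and the log2 difference was 1.06 ± 0.36. Against the wild-type mean, Ifi27 was 0.53 higher in V118M replicate 1 and 1.59 higher in replicate 2 (log2).

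The within-library ratio of Ifi27l2a to Ifi27 was 0.0474 and 0.0446 in the wild-type pair and 0.521 and 0.389 in the V118M pair. Per kilobase of transcript it was 0.0986 and 0.0929 against 1.08 and 0.809, so these neighbours stood at nearly equal levels in V118M and far apart in wild type. A further copy of the family, Ifi27l2b, had 0 in the wild-type columns and 2 in the V118M columns. RefSeq lists Ifi27 also as a synonym of Ifi27l2a, so the identifiers above define which gene is meant. The full RefSeq span of Ifi27l2a reaches across Ifi27, and with the strand setting of the authors' counting not given, reads in the shared stretch could have gone to either.

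Ifi35 and Ifi44 belong to no family among the others. Ifi44 (ENSMUSG00000028037, chromosome 3, 151730922 to 151749960, minus strand), a cytoplasmic protein gene induced by type I interferon, was at 112 and 100 in wild type and at 308 and 351 in V118M. Its V118M libraries lay close together and well above the wild type, with a log2 difference of 1.63 ± 0.19 (limma adjusted p = 0.381) and of 1.53 and 1.72 in V118M replicates 1 and 2 taken singly. Ifi35 (ENSMUSG00000010358, chromosome 11, 101448407 to 101458698, plus strand), which encodes a leucine zipper protein that binds Nmi, was at 180 and 204 in wild type and at 265 and 478 in V118M. The groups did not overlap, and the log2 difference was 0.89 ± 0.31. It was 0.47 without V118M replicate 2 and 1.31 without replicate 1. Nmi itself was at 64 and 82 in wild type and at 108 and 175 in V118M.

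Per kilobase of the transcript named in the table, the levels spanned from 5.44 for Ifit3 to 5280 for Ifitm2 in the wild-type mean. The wild-type order from the highest was Ifitm2, Ifitm3, Ifi27, Ifitm1, Ifi35, Ifi44, Ifi27l2a, Ifit2, Ifit1 and Ifit3. Per-kilobase ranges of the wild-type libraries did not overlap between any neighbours in that order. The closest neighbours were Ifi27l2a, at 21.6 in each, against Ifit2, at 21.2 and 18.6. In V118M Ifitm3 was the highest at a mean of 7729 per kilobase, and Ifi27l2a moved from the seventh place to the fourth, with 354 and 553 per kilobase against 327 and 683 for Ifi27. Those ranges overlapped, as did those of Ifi27l2a and Ifitm1 (260 and 399) and of Ifitm1 and Ifi35 (195 and 351). Ifit2, at 24.1 and 19.9, overlapped Ifit3, at 11.5 and 24.1. Across the 10 genes a higher wild-type value went with a smaller log2 fold change (Spearman's rho -0.685 over 10 genes that share the same 4 libraries), given only as a description.

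**Figure D3:**
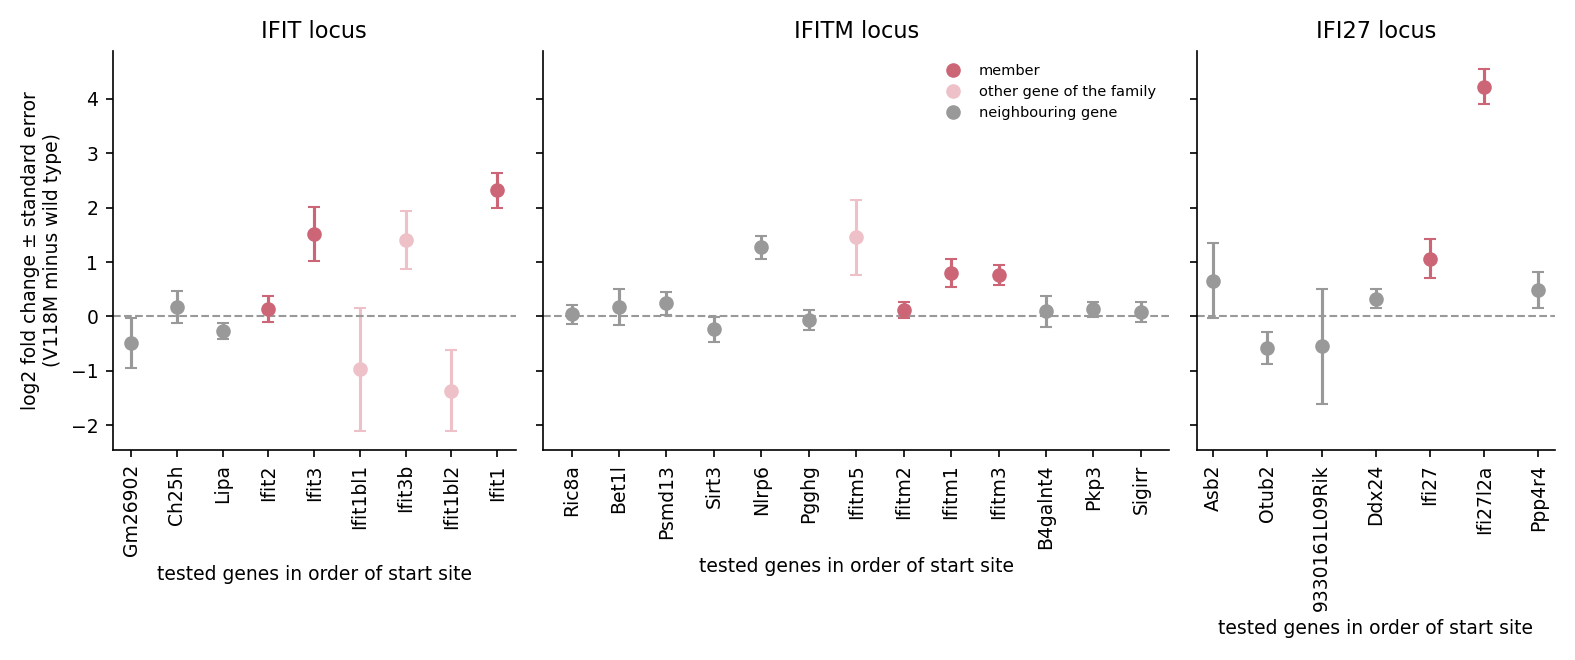
Log2 fold change and standard error of the tested genes whose start sites lie within 100 kb of the IFIT, IFITM and IFI27 genes, in order along the chromosome, with 2 family genes that had no wild-type value above 0 left out. The members Ifit1, Ifit3, Ifi27 and Ifi27l2a stand above every plotted neighbour of their own locus, while Nlrp6 at 1.27 stands above the 3 IFITM members.

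The genes around the 10 were examined because the families are clustered. Within 100 kb of the start sites of each locus, 24 tested genes belong to none of the families. Of these, 15 were higher and 9 lower in V118M, with a median log2 fold change of 0.12. Over all tested genes 50% were higher and the median was 0.00. Both V118M libraries were above both wild-type libraries in 7 of these 24, where 13.2% of all tested genes were so. With V118M replicate 1 alone the median was -0.02, with 9 of the 24 above both wild-type libraries and 8 below both, against 28.1% and 32.5% of all tested genes. At the IFIT locus the 3 such genes had log2 fold changes from -0.49 to 0.17. Among them the oxysterol enzyme gene Ch25h was at 172 and 226 in wild type and at 176 and 280 in V118M. Lipa, for a lysosomal lipase, was at 608 and 576 against 498 and 488. At the IFITM locus the inflammasome sensor gene Nlrp6 was at 294 and 226 in wild type and at 688 and 564 in V118M, a log2 difference of 1.27 (limma adjusted p = 0.589). Beside Ifi27, the RNA helicase gene Ddx24 was at 2694 and 3142 against 3312 and 4030. Ch25h, Lipa, Nlrp6 and Ddx24 were named after their values were seen.

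The V118M libraries also differed from each other in these genes. Of the 10 genes, 9 were higher in V118M replicate 2 than in replicate 1, by a median of 0.63 on the log2 scale, Ifit2 alone being lower (-0.27). In all 10 the V118M libraries were further apart than the wild-type libraries, whose log2 differences ran from -0.19 to 0.33. The shares of all tested genes that did the same were not computed. V118M replicate 2 stood apart over all genes, so neither count is read as particular to the 10. The median of the 10 above the wild-type mean was 0.57 in V118M replicate 1 and 1.45 in replicate 2, and all 10 were above it in replicate 1. Of the 19547 tested genes, 8996 were above their wild-type mean in V118M replicate 1, with a median difference of 0. Without V118M replicate 2 the number at least 2-fold higher was 4, and 7 without replicate 1, where 4.34% and 6.87% of tested genes were so.

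**Figure D4:**
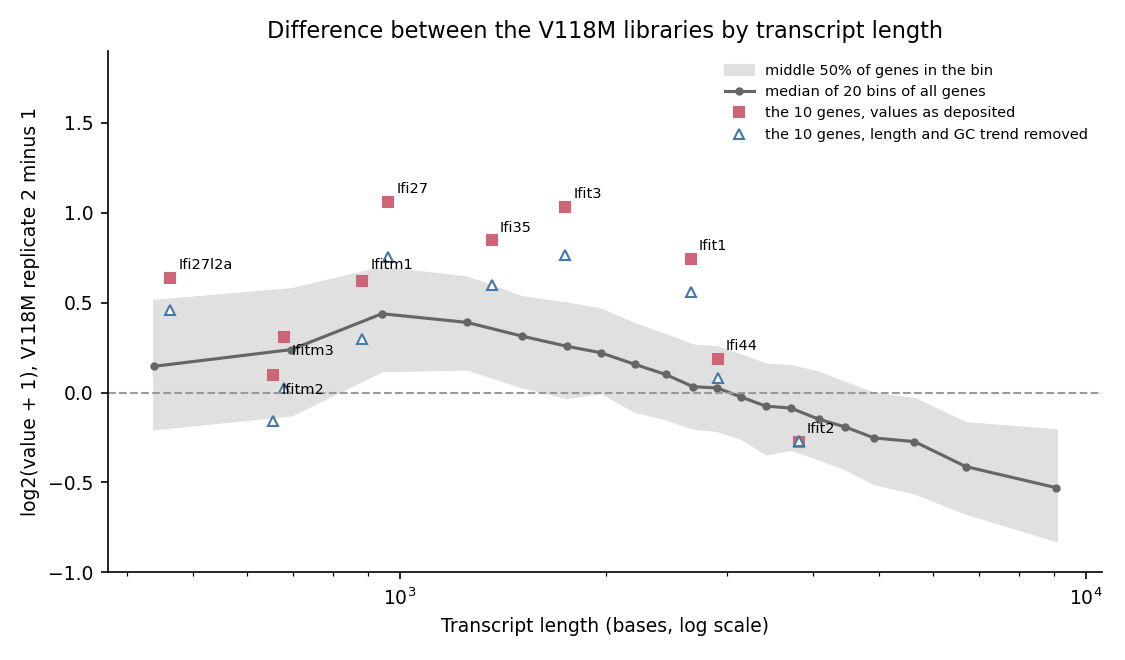
V118M replicate 2 minus replicate 1 on the log2(value + 1) scale against transcript length (log axis), as medians and middle 50% of 20 bins of all genes whose log2 values averaged 5 or more, and for the 10 genes before (squares) and after (triangles) removal of a length and GC trend. Ifi27, Ifit3 and Ifi35 stand at 1.06, 1.03 and 0.85, and as deposited these 3, Ifit1 and Ifi27l2a lie above the middle 50% of genes of their length.

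Transcript length varied with the difference between the V118M libraries over all genes, and the 10 genes differ in length. The median of V118M replicate 2 minus replicate 1 was 0.26 for 1691 genes with transcripts of up to 1000 bases, 0.32 for 2511 genes of up to 2000 bases and -0.11 for 8433 longer ones. The 10 transcripts ran from 463 bases (Ifi27l2a) to 3818 bases (Ifit2), and 5 of them were of at most 1000 bases. Over the 10 genes themselves length and this difference had a Spearman's rho of -0.0788. After removal of a trend on length and GC content, the median difference between the V118M libraries was 0.38 and 8 of the 10 were higher in replicate 2. The log2 fold changes with the trend removed were positive in all 10, from 0.01 for Ifitm2 to 4.14 for Ifi27l2a. Both V118M libraries were then above both wild-type libraries in 8. The share of all tested genes under this setting is not given here, so nothing is read from that count.

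**Figure D5:**
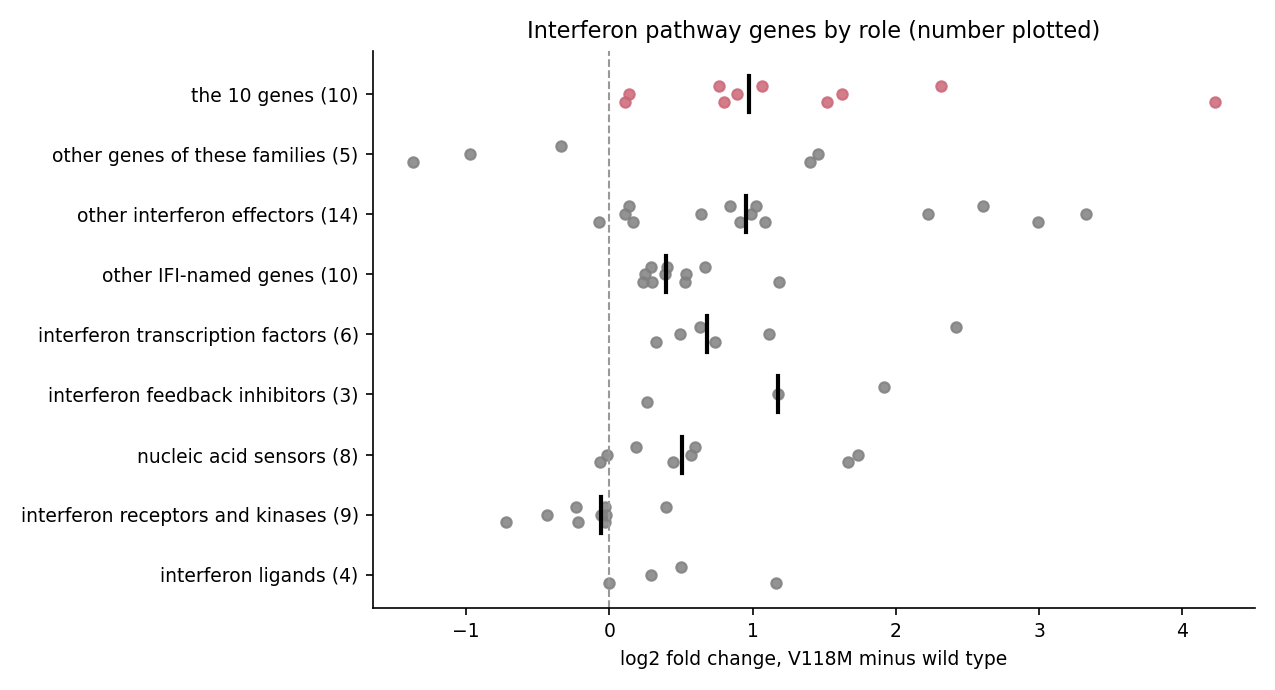
Log2 fold change of each tested gene in lists of interferon pathway genes by role, with a bar at the list median; genes at 0 throughout a group are left out, and no median is drawn for the ligands and the other family genes, most of them near the bottom of the scale. The 10 genes have a median of 0.98, and receptors and kinases lie around -0.06.

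Other genes of the interferon pathway, from lists set down with earlier results known, were read in the same fit. Of 68 listed genes 62 were in the table and 61 were tested. Of these 46 were higher and 14 lower, and both V118M libraries were above both wild-type libraries in 36 and below them in 6. Over all tested genes 50% were higher and 13.2% had both V118M libraries above. With V118M replicate 1 alone, 44 of the 61 were above both wild-type libraries and 10 below both, against 28.1% and 32.5% of all tested genes. In limma 0 of the 61 passed an adjusted p of 0.05, and 26 higher genes and 0 lower ones had an unadjusted p under it, where 2.31% of all tested genes were higher and under it. Ligands were near the bottom of the scale, with Ifnk at 0 and 6 against 13 and 0 and Ifng at 0 and 3 against 0 and 19. Named outside the rule, the interferon beta gene Ifnb1 was at 1 and 1 against 1 and 2. Receptors and kinases were lower in 8 of 9, with a median of -0.06, and with V118M replicate 1 alone 6 of the 9 were below both wild-type libraries and 3 above. Of these, Ifnlr1, the lambda interferon receptor gene, was at 32 and 27 against 16 and 19, Il10rb, which pairs with it, at 278 and 322 against 242 and 202, and the kinase gene Jak1 at 3989 and 3958 against 3804 and 3059.

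The transcription factors were higher in 6 of 6, with no overlap and a median of 0.68 (0.76 with V118M replicate 1 alone). Irf9, a DNA-binding factor of the response element, was at 220 and 244 against 542 and 468. Irf7, which amplifies the type I response, was at 48 and 50 against 254 and 280.

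The feedback inhibitors were higher in 3 of 3, with a median of 1.18 (0.88 with V118M replicate 1 alone). The receptor-binding protease gene Usp18 was at 25 and 17 against 66 and 99, Socs1 at 32 and 24 against 52 and 79, and Socs3, the most abundant, at 742 and 764 against 888 and 922. Sensors were higher in 6 of 8 (median 0.51, or 0.42 with V118M replicate 1 alone). The nucleic acid sensor gene Zbp1 was at 18 and 36 against 87 and 88 and the RNA helicase gene Dhx58 at 24 and 33 against 84 and 100, while the adaptor gene Mavs was at 1100 and 1114 against 1094 and 1022. Other effectors were higher in 13 of 14 (median 0.95, or 0.64 with V118M replicate 1 alone). Here the ubiquitin-like modifier gene Isg15 was at 9 and 15 against 81 and 196, Oas2, an activator of RNase L, at 38 and 28 against 310 and 230, and Trim25 at 1382 and 1088 against 1576 and 1112.

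Other genes with an IFI name, most of them of the HIN-200 family of DNA-binding proteins on chromosome 1, were higher in 10 of 10 with a median of 0.39 (0.42 with V118M replicate 1 alone). Ifi203 was at 865 and 906 against 1248 and 1312, Ifi211 at 200 and 228 against 322 and 357, and the GTPase gene Ifi47 at 7 and 3 against 14 and 10. Of the other genes in the IFIT, IFITM and IFI27 families, 8 were in the table. Ifitm10 was at 59 and 79 against 38 and 76, Ifitm5, a bone gene, at 0 and 1 against 2 and 4, and Ifitm6 at 0 and 0 against 4 and 4. Ifitm7 was listed at 0 in all 4. Reads of these close relatives could be shared between them.

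The genes with the pattern most like the 10 were found by the root mean square distance between log2 values centred over the 4 libraries. The reference was the median profile of the 9 members averaging a log2 value of 5 or more (Ifit3 was below it), and 12652 other genes were compared. The nearest were Mfap2 (distance 0.066), Plac9b (0.0798), Nmi (0.0844), Dlk1 (0.0893) and H2-Q4 (0.0903). Mfap2, for a microfibril protein, was at 50 and 61 in wild type and at 85 and 132 in V118M, and the MHC class I gene H2-Q4 at 44 and 50 against 66 and 107. Dlk1, a Notch-related membrane protein gene, was at 271 and 284 against 442 and 626. Among the members Ifi35 (0.0926) and Ifitm1 (0.102) were closest to this profile and Ifi27l2a (1.62) the farthest. The profile was a poor summary of several members. Of the 12652 genes, 541 were nearer to it than Ifit3, 1469 than Ifi44, 3966 than Ifitm2, 6050 than Ifit2, 9261 than Ifit1 and 12637 than Ifi27l2a. The distances use all 4 libraries, V118M replicate 2 included.

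Marker genes were checked beside these values. The fibroblast gene Thy1 was at 1694 to 1822, and the summed value of 8 fibroblast markers was 115242 and 110473 against 113756 and 77962, with 4 higher and 4 lower. The low sum was that of V118M replicate 2, where the collagen gene Col3a1 was at 29496 against 61186 in the others. On this quantile-normalized scale 61186 was the highest value. The fall is thus a change of rank, and its size cannot be read as a loss of RNA. Without Col3a1 the other 7 markers summed to 54056 and 49287 against 52570 and 48466. Most of each of these sums was Col1a2, at 29492 in every library, so they say little about fibroblast content. The epithelial gene Cdh1 was at 2822 to 3492. The 6 pluripotency markers summed to 101 and 160 against 237 and 212, and all 4 that were tested were higher. Most of that sum was Tdgf1, at 83 and 126 against 188 and 149, with Utf1 at 10 and 17 against 33 and 38, Nanog at 1 to 8 and Esrrb at 0 or 1. The summed value of 10 leukocyte markers was 870 and 815 in the wild-type pair and 612 and 627 in the V118M pair, with 2 of the 9 tested higher, 7 lower and Cx3cr1 at 0 in all libraries. The pan-leukocyte gene Ptprc, at 165 and 58 against 30 and 0, was the only tested marker of this list whose groups did not overlap. The 2 higher ones were Itgam, the most abundant of the list, at 251 and 428 against 366 and 330, and Csf1r at 58 and 20 against 26 and 46. The summed value of 5 keratinocyte markers was 7429 and 7101 against 9206 and 12296, and 4 of the 5 were higher. This sum was highest in V118M replicate 2 and came mostly from Krt14, at 5802 in V118M replicate 1 and 8053 in replicate 2. Krt5 and Sfn were also higher in V118M replicate 2 than in replicate 1. Krt15 (21 in replicate 1 and 18 in replicate 2) and Trp63 (112 and 92) were lower. Endothelial markers summed to 1168 and 1217 against 1095 and 971, mostly from Tek (1103 and 1172 against 1054 and 933), with Emcn at 0 throughout. Of the 4 tested, Pecam1 was higher (17 and 14 against 18 and 24) and 3 were lower, among them Cdh5 (26 and 16 against 9 and 6). Epithelial markers summed to 13898 and 14063 against 13265 and 12909. Germ cell markers, relevant to Ifitm3, summed to 54 and 10 against 16 and 91, mostly from Dazl (40 and 0 against 8 and 69), with Nanos3 at 0 in all libraries and Dppa3 at 0 or 1. The part of these cell types in the values of the 10 genes was not tested.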

How the data were processed

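RNA of 4 libraries (2 wild-type SOX17, 2 V118M) was analysed from the authors' deposited gene table. Its values are scores: whole numbers whose 4 sorted columns were equal at 76.7% of ranks, the pattern that quantile normalization leaves, so the deposited scores were not treated as raw counts. Column totals ran from 12855482 to 12859613, sequencing depth is unknown, and no counting intervals are given. Per the submitters' processing notes, FastQC, RSEM, Bowtie2, DESeq2 and mm10 were used, with no role stated. Neither the normalization nor the strand setting is given in the sources used here.

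The fit ran on all genes with limma 3.58.1 in R 4.3.3 (trend and robust options) on log2(value + 1), with group as the only term, two-sided tests and Benjamini-Hochberg adjustment over 19547 genes. It was run on 20 simulated data sets with 200 changed genes each. Their noise was independent and of the same size in all 4 libraries, with no library standing apart and no length trend. The simulation therefore says nothing about how the fit handles those features of these data. The filter kept genes reaching a value of 1 in 2 or more libraries. Coordinates and transcript lengths are from GENCODE M21 (GRCm38, the assembly of mm10), where 22304 of the 22369 transcripts were found and 95.9% of their start sites lay within 1 base. Whether lengths entered the authors' normalization is unknown, so levels per kilobase are approximate. Promoters are from RefSeq (GRCm38.p6).

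The members, gene lists and tests were chosen with earlier results of these data known. By the rule for named genes, all 10 members were named, with the 2 largest absolute log2 fold changes and the highest mean value in each pathway list, and the 5 nearest profiles. Further family genes, locus neighbours and marker genes were named after their values were seen. One gene that the rule names is not reported here. Listed genes with no row matched by symbol (Ifi44l, Mx2, Ifna4, Ifne, Ifnl2 and Ifnl3) were not analysed here. Alternatives were other pseudocounts and filters, the replicate number as a block, limma without its options, array quality weights, a length and GC trend removed, and each library left out.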

Additional observations from a re-analysis of the deposited data

How the results depend on the processing

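All 10 genes had a positive log2 fold change under each of the 12 alternatives tried, and none of the 120 values for single genes was below 0. The other filters, the replicate block, limma without its options and the array quality weights gave the main values again. These settings alter the tests and not the log2 fold changes of the 10 genes, so they are no check on direction. In 9 of the 10 the groups did not overlap. For these, another pseudocount or a left-out library cannot turn the sign either, and only the trend removal could. In Ifit2 a left-out library could also have done so. Without V118M replicate 2 or replicate 1 the log2 fold change of Ifit2 was 0.28 or 0.003, and that of Ifi27 0.53 or 1.59. The median of the 10 was lowest, at 0.57, without V118M replicate 2 and highest, at 1.45, without V118M replicate 1; it was 0.91 and 1.04 with 1 or the other wild-type replicate left out and 0.87 with the length and GC trend removed. It stayed between 0.96 and 0.98 under the other pseudocounts. Both V118M libraries were above both wild-type libraries in 9 of the 10 in the main fit, against 13.2% of all tested genes. With the trend removed the count was 8, and the share of all genes is not given here. The other alternatives that kept all 4 libraries cannot change the order of the libraries within a gene. Their count of 9 was therefore fixed. With 1 library left out, the count of genes with the remaining V118M libraries above the remaining wild-type ones can only stay or rise. It was 9 or 10, which is no check either. Without V118M replicate 2 it was 10, where 28.1% of all tested genes had V118M replicate 1 above both wild-type libraries. With the replicate number as a block, 3 genes passed an adjusted p of 0.05 in limma instead of 0, Oas2, C4b and Ifi27l2a (adjusted p = 0.0276 for each). The labels do not say that the numbers pair the libraries. The deviations of same-numbered libraries from their group means correlated at 0.303 across genes, and with 2 libraries a group this cannot settle the pairing. Counts and medians with V118M replicate 1 alone for the pathway genes and the neighbours were added after the data were seen. No other alternative gave a gene past that threshold. With limma's trend and robust options off, 5 of the 10 had an unadjusted p under 0.05 instead of 8. Of all tested genes, 2.88% were then higher and under it, against 2.31% in the main fit. The unadjusted count over all genes ranged from 221 without wild-type replicate 1 to 5096 without V118M replicate 1, and the cause was not tested. It was 1204 with the replicate block. In fits that leave a group with 1 library, that library is assumed to vary like the other group. Signals lie on a shared scale with no depth, so values of about 10 or less, such as those of Ifit3 in wild type, the ligands and the minor family copies, carry little precision.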
